A study of Homo sapiens with 3 samples.

Results

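The collagen chain genes described here are the genes that encode the polypeptide chains of the collagens. They were chosen by symbol alone, as COL, a number, A and a number, and 44 of the 51136 genes of the deposited count table have such a symbol. Genes with a similar name that encode no collagen chain, such as COL4A3BP, which encodes a lipid transfer protein, and the pseudogene COL6A4P1, were left out. The table holds 3 RNA-seq libraries of PANC-1, an established cell line from a human pancreatic cancer. The control cells received no agent. The second culture received ginsenoside Rg3, a triterpene glycoside of ginseng, at 200 μM, and the third received tamoxifen (TAM), a modulator of the estrogen receptor, at 50 μM, each for 24 h and each given alone. All cells were grown in DMEM with fetal calf serum, and no carrier for the agents is named in the labels. The study used Rg3 as an anti-angiogenic agent and TAM to inhibit protein kinase C signalling, and the comparison of the libraries asks how each of them changed gene expression in the tumor cells.

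Collagens are the main structural proteins of the extracellular matrix. Their chains carry repeats of glycine and a pair of other residues, written Gly-X-Y, and wind around each other in threes to form a triple helix. Fibrillar collagens assemble into cross-striated fibrils, type IV collagen forms the network of basement membranes, type VI collagen forms beaded filaments, the FACIT collagens sit on the surface of fibrils, and a few chains are anchored in the cell membrane. In pancreatic tumors most of the fibrous collagen is known to come from fibroblasts and stellate cells, while carcinoma cells make chains of their own. The coding sequences of the chains differ in how much of them is helix. Of the residues encoded by the longest GENCODE 29 coding sequence, 72.8% lie in runs of Gly-X-Y in COL1A1, with a longest run of 338 triplets. In COL6A3 the share is 10.4% with a longest run of 45 triplets, and in COL12A1 it is 8.13% with a longest run of 32. COL9A3 has the highest share of the 44 chains, at 85.1%.

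Several chain genes lie head to head, so that 1 stretch of DNA runs between the start sites of partner chains. The start sites of COL4A1 and COL4A2, which encode the chains of the most widespread type IV collagen, lie 126 bases apart in RefSeq (assembly GRCh38.p14). Those of COL4A4 and COL4A3 lie 418 bases apart, and those of COL4A6 and COL4A5 lie 379 or 1415 bases apart, depending on the start site of COL4A6. The stretch between COL4A1 and COL4A2 is shown at chr13:110307158-110307283 on the plus strand, because both genes had lower counts with TAM. The 250 bases before the start site of COL4A5 (chrX:108439588-108439837, plus strand) are shown as those of a further type IV chain. Those of COL6A3 (chr2:237414165-237414414, minus strand), COL13A1 (chr10:69801656-69801905, plus strand) and COL7A1 (chr3:48595330-48595579, minus strand) are shown because COL6A3 had the lowest change of all chains with TAM and the other two were called in opposite directions with Rg3 and TAM. All are written 5′ to 3′, and the windows before a single start site run on the strand of their gene. Capitals mark the letters of 3 short motifs searched on both strands, GGGCGG (a GC box), CCAAT and TATAAA.
COL4A1-COL4A2: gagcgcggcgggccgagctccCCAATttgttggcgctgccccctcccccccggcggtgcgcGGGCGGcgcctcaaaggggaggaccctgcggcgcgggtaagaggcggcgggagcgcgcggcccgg
COL4A5: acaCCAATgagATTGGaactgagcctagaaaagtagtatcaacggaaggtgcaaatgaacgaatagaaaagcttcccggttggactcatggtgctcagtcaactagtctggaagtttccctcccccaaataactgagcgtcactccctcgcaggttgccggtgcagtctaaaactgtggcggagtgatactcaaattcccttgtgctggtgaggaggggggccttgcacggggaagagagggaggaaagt
COL6A3: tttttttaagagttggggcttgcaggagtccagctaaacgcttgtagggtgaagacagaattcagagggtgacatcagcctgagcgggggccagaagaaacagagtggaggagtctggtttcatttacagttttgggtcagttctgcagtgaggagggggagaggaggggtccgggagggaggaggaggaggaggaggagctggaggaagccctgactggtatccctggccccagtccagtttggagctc
COL13A1: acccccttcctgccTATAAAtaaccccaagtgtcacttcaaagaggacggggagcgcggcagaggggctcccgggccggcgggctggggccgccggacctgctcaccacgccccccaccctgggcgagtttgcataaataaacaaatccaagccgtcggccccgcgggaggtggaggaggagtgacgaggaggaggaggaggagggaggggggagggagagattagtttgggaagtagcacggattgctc
COL7A1: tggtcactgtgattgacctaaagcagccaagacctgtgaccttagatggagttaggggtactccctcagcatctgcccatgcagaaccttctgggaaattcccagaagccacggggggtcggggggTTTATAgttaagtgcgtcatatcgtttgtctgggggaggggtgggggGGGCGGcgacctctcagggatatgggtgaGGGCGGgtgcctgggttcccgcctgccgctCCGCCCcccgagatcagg
The stretch between COL4A1 and COL4A2 is 80.2% G and C and holds 1 GC box and 1 CCAAT. COL7A1 has 3 GC boxes and 1 TATAAA, COL13A1 has 1 TATAAA, COL4A5 has 2 CCAAT, and COL6A3 holds none of the 3 motifs in this window. RefSeq gave a window for 32 of the 44 chains, with 44 windows in all because 8 of these chains have several start sites. Some of these windows overlap, such as those of COL4A1 and COL4A2 and those of COL5A1. The median G and C content was 64.2% in the collagen windows and 58.0% in the windows of all genes. A GC box was present in 24 of the 44 windows (54.5%) and in 42.6% of the 35116 windows of all genes. The shares were 27.3% (12 windows) against 32.0% for CCAAT and 18.2% (8 windows) against 10.7% for TATAAA. A match of letters describes the sequence and no binding was measured.

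The reads counted on genes came to between 11300766 and 12861693 per library. Since there is 1 library for each condition, a difference could not be checked in a replicate, no p-value is given, and each interval below is an exact 95% interval that covers counting error only. Comparisons were limited to genes that reached 10 counts in 1 or both of the libraries. A gene rose or fell, in the sense used below, where its fold after TMM scaling was over 1.5 or under 0.67 and its counting interval left out no change. Against division by library totals, TMM scaling moved the log2 fold changes under Rg3 by -0.14 and those under TAM by 0.21. The changes of genes went along with the GC content of their transcripts. Across genes with at least 50 counts, which are not independent replicates and share their libraries, Spearman's rho with GC content was -0.81 with Rg3 (11967 genes) and 0.51 with TAM (11383 genes). The collagen chains sat at the GC-rich side. Those compared with Rg3 at that count had a median of 60.3% G and C, against 48.4% for all genes. Within the collagen chains at that count, rho was -0.14 with Rg3 (13 chains) and 0.32 with TAM (15 chains). A smooth trend on GC content and length, fitted over all genes at that count, was taken out as an alternative.

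Reads were counted on 39 of the 44 chains. In the control library 17518 reads were counted on collagen chains, which came to 1526 CPM (counts-per-million of the TMM-scaled library size), against 12003 with Rg3 (834 CPM) and 11322 with TAM (1138 CPM). No read was counted in any library on COL6A5, COL10A1, COL19A1, COL23A1 or COL25A1, and a count of 0 allows up to 3 counts in a library. Another 15 chains had between 1 and 9 counts in their highest library, namely COL1A2, COL2A1, COL4A3, COL4A4, COL5A3, COL6A6, COL8A1, COL8A2, COL9A1, COL14A1, COL15A1, COL20A1, COL24A1, COL26A1 and COL28A1. A further 9 reached 10 to 49 counts and 15 reached at least 50. COL2A1 (1 count in each library) and COL10A1 were therefore at or near 0. COL1A2, the partner of COL1A1 in type I collagen, had counts of 2 (control), 5 (Rg3) and 2 (TAM), while COL1A1 had 1853, 1005 and 734. Per kb of transcript, COL1A1 stood 825-fold above COL1A2 in the control library (interval 228 to 6821), 179-fold with Rg3 (76.5 to 553) and 327-fold with TAM (90.2 to 2705).

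Levels between chains were compared as RPKM, which is CPM per kb of the longest GENCODE 29 transcript. COL18A1, which encodes a basement membrane collagen that carries heparan sulfate chains, had the highest level in every library, at 125 RPKM in untreated cells, 66.7 under Rg3 and 115 under TAM. Its share of all collagen reads was 53.8% (53.0 to 54.5), 52.7% (51.8 to 53.6) and 66.7% (65.8 to 67.6). COL5A2 followed at 38.4, 24.3 and 14.5 RPKM. COL1A1 came next in the control and Rg3 libraries, at 24.0 and 10.4 RPKM, and stood at 10.96 with TAM. COL13A1, a chain that spans the cell membrane at sites of adhesion, was at 5.08 RPKM in the control library and 1.199 with Rg3, and with TAM it stood at 15.98 RPKM, above COL5A2. The other 20 chains with at least 10 counts were under 7 RPKM in the control library. The order was thus led by COL18A1, COL5A2 and COL1A1 without treatment and by COL18A1, COL13A1 and COL5A2 with TAM.

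**Figure D1:**
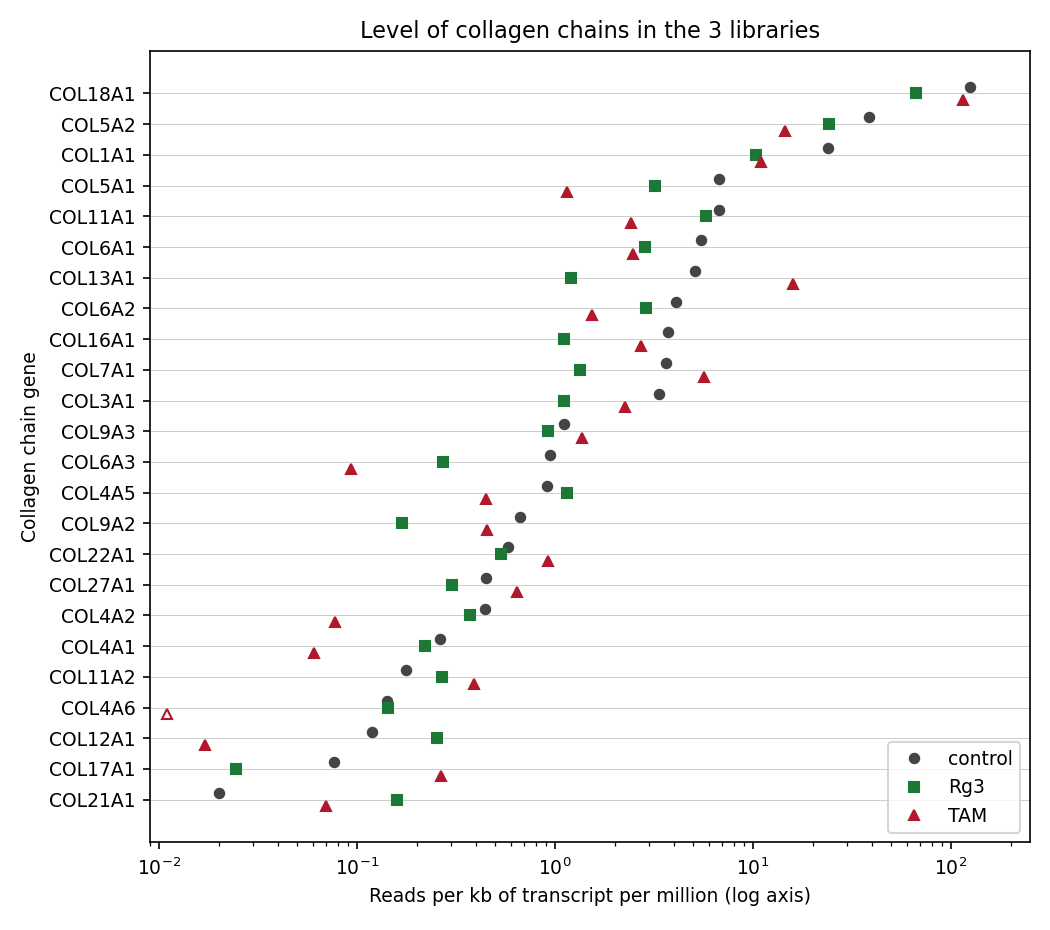
Level of each of the 24 collagen chains with at least 10 counts in any library, in RPKM (CPM per kb of transcript) on a log axis, with 1 point per library (control circles, Rg3 squares, TAM triangles) and chains ordered by their control level. COL18A1 is at the top in all 3 libraries, COL13A1 goes from 5.08 in the control library to 15.98 with TAM, and the open triangle of COL4A6 stands for 0 counts with TAM and is drawn at the left edge of the axis.

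With Rg3, more of the compared chains fell than rose. Of the 44 chains 23 could be compared, and 11 of them (47.8%) were lower than in the control library, where 16.2% of the 16487 genes compared were lower. Another 2 (8.70%) were higher, where 20.9% of all genes were. The median log2 fold change was -0.56 over the 23 chains and 0.04 over all genes compared. With the GC and length trend taken out, 6 chains fell and 2 rose, where 6.23% of all genes fell and 7.18% rose, and the median of the chains was 0.0085. COL13A1, COL16A1, COL3A1, COL5A2, COL6A3 and COL7A1 were the 6 that were lower with and without the trend, and COL12A1 and COL11A2 were the 2 higher ones, with COL11A2 in place of COL21A1. COL18A1, COL1A1, COL5A1, COL6A1 and COL9A2 were no longer called, and COL18A1 then stood at 0.0085. Fewer cells that express a chain and less RNA of it per cell cannot be told apart in these libraries.

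With TAM, 12 of the 23 compared chains (52.2%) were lower than in the control library, where 19.0% of the 16079 genes compared were lower. Another 5 (21.7%) were higher, where 14.4% of all genes were. The median log2 fold change was -1.02 over the chains and -0.02 over all genes. With the GC and length trend taken out, 11 were lower and 6 higher with a median of -0.91, as COL12A1 was no longer called and COL27A1 was. Of all genes compared, 11.4% were then lower and 11.8% higher. Division by library totals gave 14 lower and 2 higher, where 27.5% of all genes were lower and 7.31% higher. COL16A1 and COL3A1 joined the lower chains there, and of the higher ones COL13A1 and COL17A1 kept their call.

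**Figure D2:**
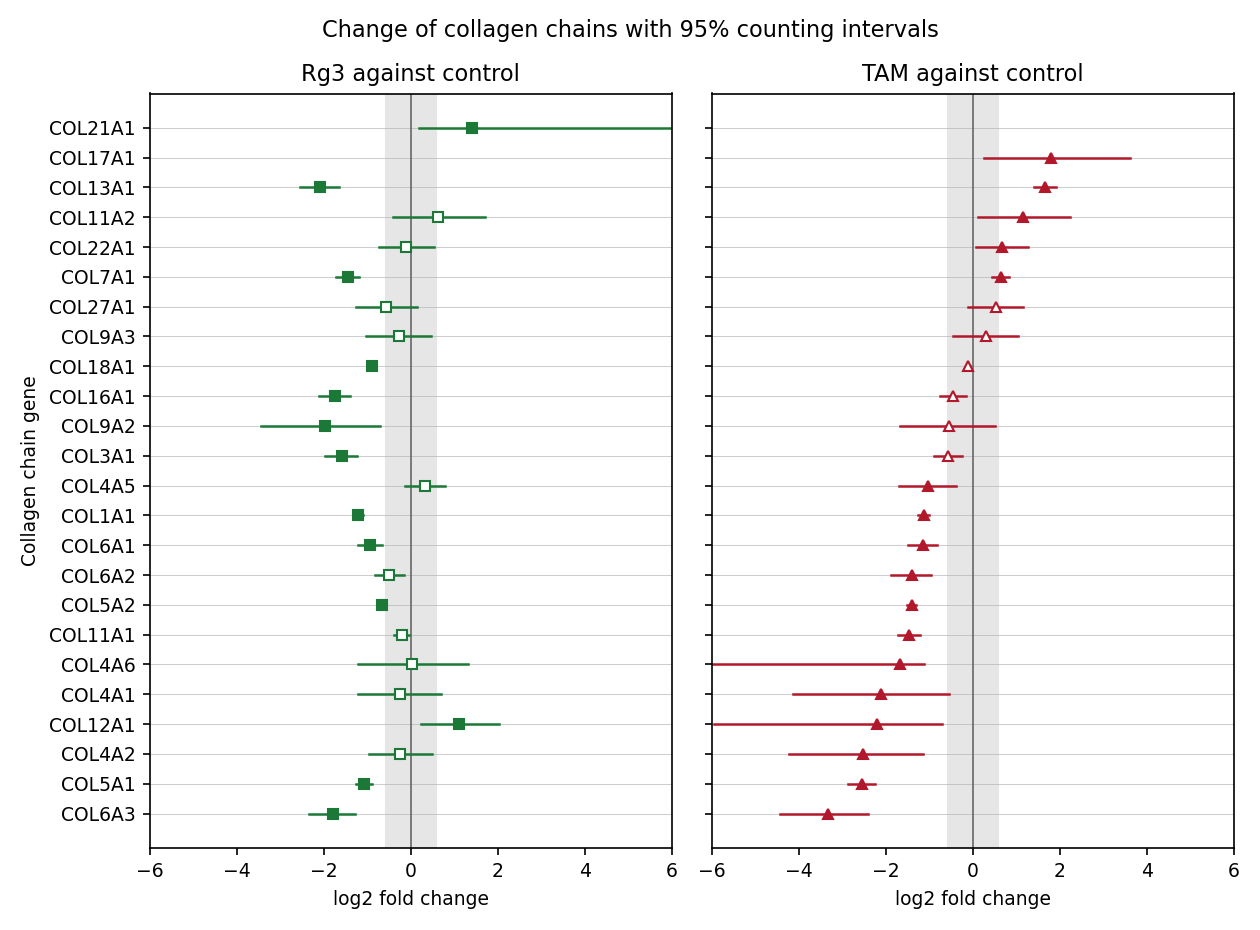
Log2 fold change of the compared collagen chains with Rg3 (left) and TAM (right) against control, in the order of the change with TAM, where points are the values, filled if called and open if not, lines are exact 95% counting intervals truncated at the axis limits, and the grey band spans folds of 0.67 to 1.5. Counts under 3 were raised to 3, so that COL4A6 and COL12A1 with TAM and COL21A1 with Rg3 are plotted at that floor, and most points lie left of 0 on both sides while COL13A1 and COL7A1 lie left with Rg3 and right with TAM.

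Among the fibrillar chains, the 7 compared ones held 4 that fell and none that rose with Rg3, and 4 that fell and 1 that rose with TAM, with median log2 fold changes of -0.66 and -1.13. Of all genes compared, 16.2% fell and 20.9% rose with Rg3, and 19.0% fell and 14.4% rose with TAM. With the GC and length trend taken out, COL3A1 and COL5A2 stayed lower with Rg3, COL1A1 and COL5A1 were not called, and COL11A2 was higher. COL5A2, a chain of type V collagen that takes part in starting fibrils (chr2:189031896-189225312), had counts of 3123 (control), 2482 (Rg3) and 1019 (TAM). It fell by 0.66 on the log2 scale in the Rg3 library (-0.73 to -0.58) and fell by 1.41 in the TAM library (-1.51 to -1.31). Division by library totals put the value under Rg3 at -0.52, within the fold limit. Its partner COL5A1 (chr9:134641774-134844843) had 658, 392 and 97 counts. COL5A1 fell by 1.07 under Rg3 (-1.26 to -0.89) and fell by 2.56 under TAM (-2.88 to -2.25), which was 5.88-fold lower and the greatest decrease among the fibrillar chains. Once the trend was taken out, its change was -0.46 with Rg3, which was not called, and -2.34 with TAM.

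COL1A1, the main chain of type I collagen (chr17:50183289-50201632), had counts of 1853 (control), 1005 (Rg3) and 734 (TAM). It fell by 1.21 under Rg3 (-1.32 to -1.10) and fell by 1.13 under TAM (-1.26 to -1.01). Both treated libraries stood close together, with a log2 difference of 0.08 (-0.06 to 0.22), but the value with Rg3 was -0.51 and not called once the trend was taken out, and with TAM it was -1.04. The difference between the treated libraries was then -0.60, a decrease with TAM that was called. COL3A1, which forms type III collagen alone, had 214, 89 and 125 counts, and fell by 1.59 with Rg3 (-1.97 to -1.23). Its change with TAM was -0.57 (-0.90 to -0.24), within the fold limit. COL11A1, a chain of type XI collagen (chr1:102876467-103108872), was the reverse. It had counts of 564 (control), 612 (Rg3) and 177 (TAM). Its change was -0.21 with Rg3 (-0.38 to -0.04), which was not called, and it fell by 1.47 with TAM (-1.72 to -1.22). Once the trend was taken out, COL11A1 stood at -0.30 with Rg3, not called, and at -0.95 with TAM, still called. COL11A2, another type XI chain, had 13, 25 and 25 counts and rose by 1.15 with TAM (0.13 to 2.24), and COL27A1, with 40, 34 and 50 counts, was not called against the control library.

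Each of the 4 compared type IV chains was lower with TAM and none was called with Rg3, with median log2 fold changes of -1.89 and -0.11. Of all genes compared, 19.0% were lower with TAM and 16.2% with Rg3. COL4A5, the most abundant of them per length (chrX:108439844-108697545), had counts of 68 (control), 107 (Rg3) and 29 (TAM), and fell by 1.02 with TAM (-1.70 to -0.38). COL4A2 had 33, 35 and 5 counts and fell by 2.52 (-4.23 to -1.15). COL4A1 had 20, 21 and 4 counts and fell by 2.12 (-4.12 to -0.54). The ratio of these head-to-head partners had overlapping intervals, with 0.595 reads of COL4A1 per read of COL4A2, both per kb, in the control library (0.324 to 1.07), 0.589 with Rg3 (0.326 to 1.04) and 0.785 with TAM (0.156 to 3.65). COL4A6, with 11 and 14 counts in the control and Rg3 libraries, had 0 with TAM and was at least 3.18-fold lower than in the control library, taking a floor of 3 counts per library for the value of 0. With the counting error of the 11 control reads included, the upper end of its log2 interval was -1.12. Summed over the 6 type IV genes, counts of 132 (control), 180 (Rg3) and 39 (TAM) gave a log2 fold change of 0.12 with Rg3 (-0.21 to 0.46) and of -1.55 with TAM (-2.11 to -1.03). The 4 decreases with TAM were also called with library totals, with DESeq2's size factors and with the GC and length trend taken out.

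The 3 compared type VI chains fell together with TAM, and by unequal amounts, while 2 of them fell with Rg3. Of all genes compared, 19.0% fell with TAM and 16.2% with Rg3. COL6A1 (chr21:45981737-46005050) had counts of 266 (control), 174 (Rg3) and 104 (TAM), and fell by 0.94 under Rg3 (-1.22 to -0.66) and fell by 1.15 under TAM (-1.49 to -0.82). COL6A2, which lies beside it on the same chromosome (chr21:46098097-46132849), had 162, 144 and 53 counts, a change of -0.50 with Rg3 (-0.83 to -0.16) that was not called, and fell by 1.41 with TAM (-1.88 to -0.95). COL6A3, whose chain is much longer and ends in the piece released as endotrophin, had 116, 42 and 10 counts. Its log2 fold change was -1.79 with Rg3 (-2.34 to -1.27) and -3.33 with TAM (-4.43 to -2.40), the lowest of all chains with TAM, and with the GC and length trend taken out it stood at -1.61 with Rg3 and -2.88 with TAM. With that trend out, COL6A1 was no longer called with Rg3, at -0.18, and COL6A2 moved to 0.33.

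Because both chains of a pair are read in the same library, their ratio does not depend on the scaling between libraries. Per kb of transcript, COL6A3 stood at 0.172 of COL6A1 in the control library (0.137 to 0.215), at 0.0952 with Rg3 (0.0663 to 0.134) and at 0.0379 with TAM (0.0177 to 0.0725). These 3 intervals do not overlap between the control library and either treated library. COL5A1 stood at 0.176 of COL5A2 in the control library (0.162 to 0.192), at 0.132 with Rg3 (0.118 to 0.147) and at 0.0796 with TAM (0.0639 to 0.0981), and none of these intervals overlap. The Rg3 shift of this pair depended on the trend, since COL5A1 fell more than COL5A2 as counted (-1.07 against -0.66) and was at -0.46 against -0.70 once the trend was taken out, while with TAM COL5A1 stayed lower, at -2.34 against -0.94. COL11A1 stood at 0.175 of COL5A2 in the control library (0.159 to 0.191), at 0.238 with Rg3 (0.218 to 0.260) and at 0.168 with TAM (0.142 to 0.197), so that only the Rg3 library stood apart. COL6A1 was at 1.34 of COL6A2 (1.10 to 1.64), at 0.987 with Rg3 (0.787 to 1.24) and at 1.60 with TAM (1.14 to 2.28), with overlapping intervals. A ratio within a library shows unequal change of the partners and not which of them changed, and partners differ in GC content, for instance 53.2% in COL6A3 and 63.5% in COL6A1.

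**Figure D3:**
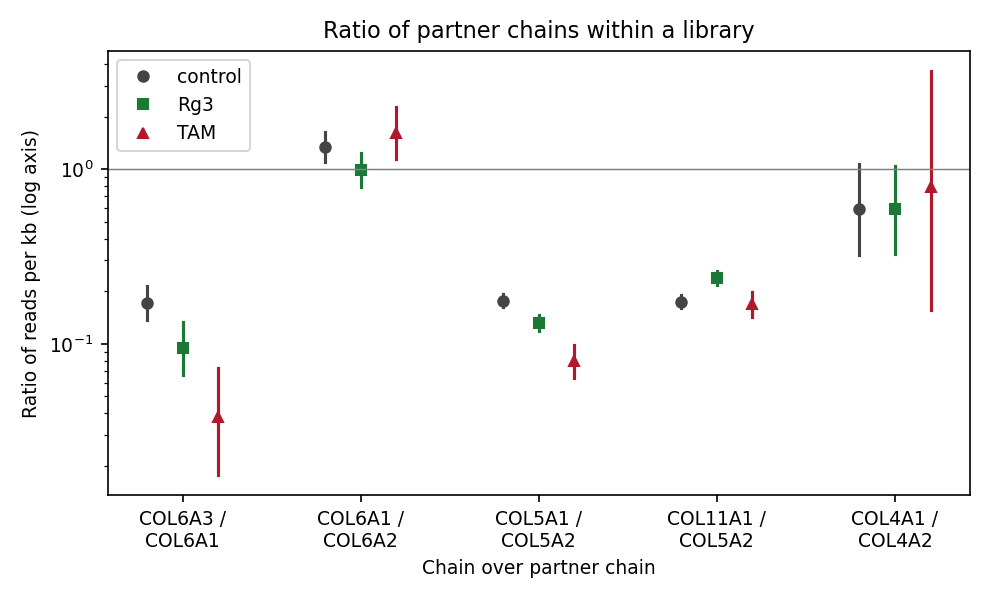
Ratio of reads per kb between partner chains within each library on a log axis, with lines for exact 95% counting intervals. The ratios of COL6A3 to COL6A1 and of COL5A1 to COL5A2 are lowest with TAM, at 0.0379 and 0.0796, while that of COL4A1 to COL4A2 has overlapping intervals in all 3 libraries.

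The membrane-spanning and anchoring chains rose with TAM. COL13A1 (chr10:69801867-69964275) had counts of 186 (control), 55 (Rg3) and 507 (TAM). It was 4.24-fold lower with Rg3 (log2 fold change -2.08, interval -2.55 to -1.64), 3.14-fold higher with TAM (1.65, interval 1.41 to 1.90) and 13.3-fold higher with TAM than with Rg3. It was still called in both libraries with the GC and length trend taken out, at -1.48 with Rg3 and 1.37 with TAM, and the log2 difference between the treated libraries went from 3.74 to 2.78. COL7A1, which forms the anchoring fibrils beneath epithelia (chr3:48564073-48595267), had 389, 178 and 525 counts. It fell by 1.45 with Rg3 (-1.72 to -1.20) and rose by 0.64 with TAM (0.45 to 0.83), which division by library totals put at 0.43 and out of the calls. Once the trend was taken out COL7A1 stood at -0.64 with Rg3 and 0.87 with TAM, both called. COL17A1, a transmembrane chain of hemidesmosomes, had 5, 2 and 15 counts and rose by 1.79 with TAM (0.26 to 3.61). COL23A1 and COL25A1, the other 2 membrane-spanning chains, had no reads.

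COL18A1 (chr21:45405137-45513720) had counts of 9423 (control), 6327 (Rg3) and 7552 (TAM), so that most collagen reads came from this gene. Its log2 fold change was -0.90 with Rg3 (-0.95 to -0.86) and -0.11 with TAM (-0.16 to -0.07), where it was not called. With the GC and length trend taken out it stood at 0.0085 with Rg3 and -0.06 with TAM, neither of them called. Its exons overlap those of SLC19A1, a folate transporter, on the opposite strand, and that gene had 312, 206 and 396 counts. Whether strand was used in counting is not given, so reads of such overlapping genes cannot be told apart. Without COL18A1, the other 43 chains held 8095, 5676 and 3770 counts, a log2 fold change of -0.84 with Rg3 (-0.89 to -0.79) and of -0.90 with TAM (-0.95 to -0.84). With COL18A1 the sums gave -0.87 (-0.91 to -0.84) and -0.42 (-0.46 to -0.39), so that the sum with TAM depended on this gene. The sums were not computed with the GC and length trend taken out.

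Among the FACIT chains, 6 were compared with Rg3, of which 2 rose and 2 fell, and 5 with TAM, of which 1 rose and 1 fell. Among all genes compared, 20.9% were higher and 16.2% lower with Rg3, and 14.4% and 19.0% with TAM. COL16A1, the most abundant of them, had counts of 245 (control), 92 (Rg3) and 155 (TAM), and fell by 1.74 with Rg3 (-2.10 to -1.39) and had a change of -0.45 with TAM (-0.75 to -0.16), within the fold limit. Its change with Rg3 was -0.99 once the trend was taken out. COL12A1 had 16, 43 and 2 counts, and rose by 1.10 with Rg3 (0.24 to 2.03). Its ratio with TAM rests on 2 reads, at a log2 value of -2.79 as read (-5.96 to -0.71) and of -2.21 with the floor of 3 counts. COL9A2 had 22, 7 and 13 counts and fell by 1.98 with Rg3 (-3.45 to -0.70), while COL9A3, which overlaps TCFL5 on the opposite strand, had 32, 33 and 34 counts and was not called. COL21A1, with 1, 10 and 3 counts, was called higher with Rg3 on a log2 ratio of 3.00 as read (0.18 to 8.43) and of 1.41 with the floor of 3 counts. Neither COL9A2, at -1.20, nor COL21A1, at 1.10, was called with Rg3 once the trend was taken out. COL22A1 had 42, 49 and 58 counts and rose by 0.67 with TAM (0.07 to 1.28). Except for COL16A1, the FACIT chains were read by at most 58 counts, and their intervals are wide.

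**Figure D4:**
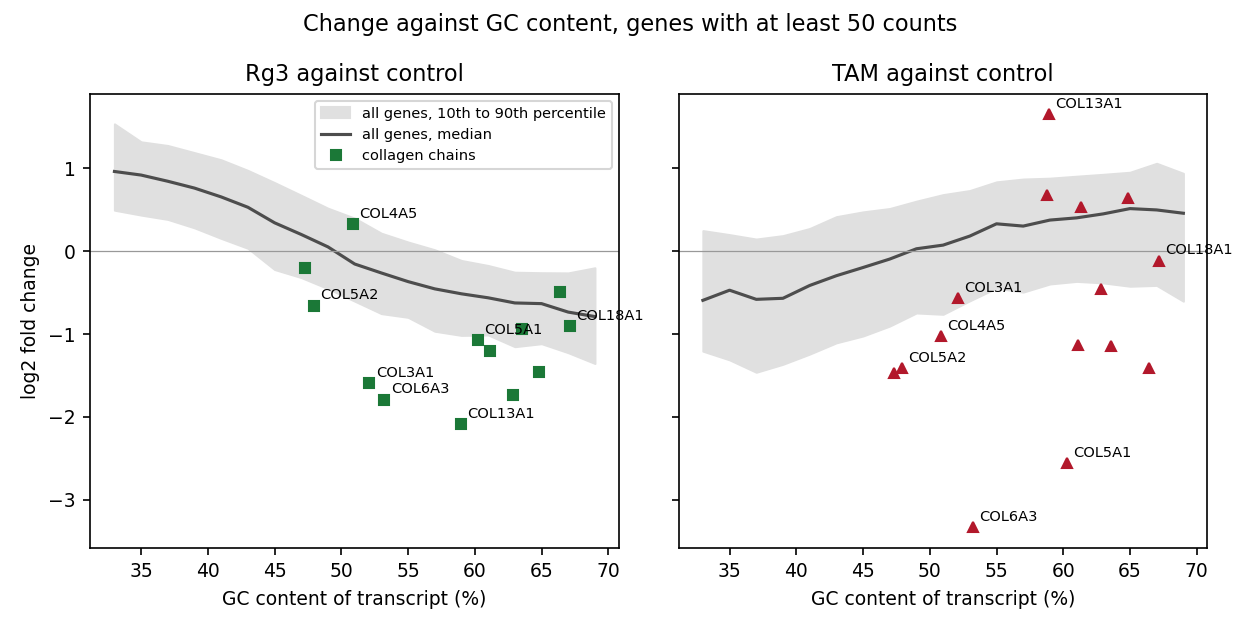
Log2 fold change against the GC content of the longest transcript with Rg3 (left) and TAM (right), for genes with at least 50 counts, where the line and band are the median and the 10th to 90th percentiles of all genes in bins of GC content and the points are collagen chains. The line falls with GC content for Rg3 (rho -0.81) and rises for TAM (rho 0.51), COL18A1 lies near it with Rg3, and COL6A3 and COL5A1 lie well under it with TAM.

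**Figure D5:**
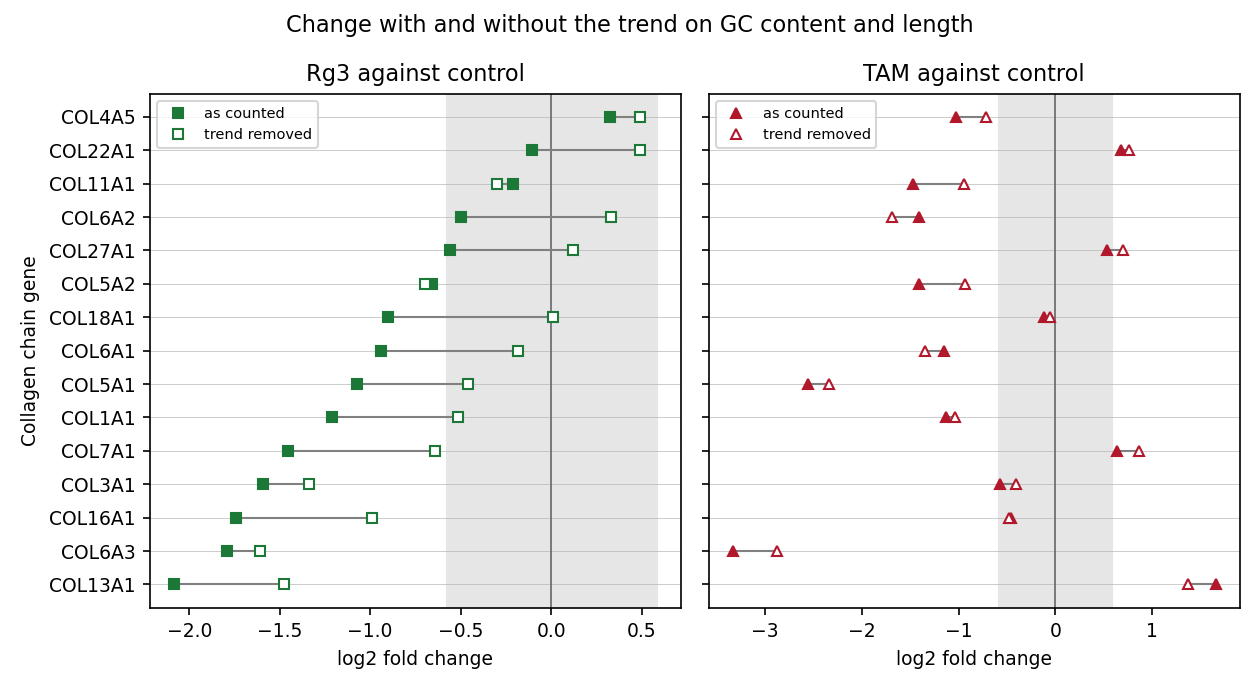
Log2 fold change of the 15 collagen chains with at least 50 counts in any library as counted (filled) and with the GC and length trend taken out (open), for Rg3 (left) and TAM (right), with folds of 0.67 to 1.5 in grey. With Rg3, COL18A1 moves from -0.90 to 0.0085 and COL1A1 from -1.21 to -0.51, while with TAM COL6A3 moves from -3.33 to -2.88 and COL13A1 from 1.65 to 1.37.

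When the TAM library was set directly against the Rg3 library, 24 chains were compared, of which 8 (33.3%) were higher with TAM and 10 (41.7%) lower. Of the 16493 genes compared, 27.1% were higher and 31.1% were lower. The median log2 fold change was -0.07 over the chains and -0.08 over all genes. The chains higher with TAM were COL13A1, COL17A1, COL7A1, COL16A1, COL27A1, COL3A1, COL18A1 and COL22A1, of which COL13A1 had the largest difference at 3.74 (3.33 to 4.17) and COL7A1 stood at 2.09 (1.85 to 2.35). These differences were 2.78 and 1.48 once the trend was taken out. Those lower with TAM were COL5A1, COL5A2, COL11A1, COL6A2, COL6A3, COL12A1 and the 4 type IV chains. With the GC and length trend taken out, 4 chains were higher and 11 lower, where 13.6% of all genes were higher and 19.7% lower. COL18A1 went from 0.79 to -0.17, which was not called. The 4 still higher were COL13A1, COL17A1, COL7A1 and COL3A1, and among the lower ones COL1A1 and COL6A1 were added and COL5A2 was lost. Rg3 and TAM were given at different doses.

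Genes that act on collagen chains in the cell were read from lists of known function. Of 18 genes for the modification and folding of chains, 2 rose and 7 fell with Rg3, and 3 rose and 1 fell with TAM. For this and the next lists, 20.9% of all genes compared were higher and 16.2% lower with Rg3, and 14.4% were higher and 19.0% lower with TAM. With the GC and length trend taken out, these shares were 7.18% and 6.23% with Rg3, and 11.8% and 11.4% with TAM. Division by library totals gave 3 higher and 5 lower of the 18 with Rg3, and 1 and 1 with TAM. The medians of the list were -0.29 and 0.18 on the log2 scale, against 0.04 and -0.02 over all genes compared. SERPINH1, the collagen chaperone HSP47, had counts of 1910 (control), 920 (Rg3) and 1840 (TAM), and fell by 1.38 with Rg3 (-1.50 to -1.27). P3H3, FKBP10 and PLOD1, a prolyl hydroxylase, a prolyl isomerase and a lysyl hydroxylase, had lower counts with Rg3, at log2 fold changes of -1.13, -0.96 and -0.82. PLOD2, the lysyl hydroxylase of the chain ends, had 854, 2409 and 628 counts and rose by 1.17 with Rg3 (1.06 to 1.28), and P4HA1, a subunit of prolyl 4-hydroxylase, had 434, 1177 and 309 counts and rose by 1.11 (0.95 to 1.27). Once the trend was taken out, SERPINH1 was the 1 gene of this list still called with Rg3, at -0.86, with PLOD2 at 0.26 and P4HA1 at 0.54. With TAM, PPIB and P3H4 rose by 0.76 and 0.74, and FKBP14 fell by 0.92. Neither PPIB nor P3H4 was called with library totals, where P4HA3 was the 1 gene that rose. Once the trend was taken out P4HA3 alone was called. P4HB, the other subunit of prolyl 4-hydroxylase, was the most abundant of the list, with 12991, 12491 and 14999 counts, and was not called against the control library.

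Of 5 genes for the export of procollagen from the endoplasmic reticulum, SEC23A rose with Rg3 by 0.72 (0.57 to 0.87), with counts of 518 (control), 1069 (Rg3) and 327 (TAM). MIA3, the cargo receptor TANGO1, fell with TAM by 1.27 (-1.55 to -1.003), with 429, 550 and 154 counts. Neither was called once the trend was taken out, with SEC23A at -0.06 and MIA3 at -0.48. With library totals 4 of the 5 were lower with TAM, as CTAGE5, SEC23A and SEC24D joined MIA3. Of all genes compared, 27.5% were lower there. Of the genes for removal of propeptides and for cross-linking, 12 were compared with Rg3, of which 1 rose and 6 fell, and 11 with TAM, of which 2 rose and 1 fell, with medians of -0.62 and 0.28. With library totals the counts with TAM were 0 higher and 3 lower, where 7.31% of all genes were higher and 27.5% lower. LOXL2, a lysyl oxidase and the most abundant of them, had 2311, 1627 and 2809 counts and fell by 0.83 with Rg3 (-0.93 to -0.74), which was -0.25 and not called once the trend was taken out. LOXL3, PCOLCE and PXDN fell with Rg3, at log2 fold changes of -1.58, -1.31 and -1.28, and were also called once the trend was taken out. BMP1, the protease that cleaves the end of procollagen, and LOXL3 rose by 0.78 and 0.63 with TAM. PXDN, the peroxidase that joins type IV collagen, fell by 0.60 (-1.20 to -0.007). With DESeq2's size factors 2 genes of the list rose and 0 fell with TAM, so that PXDN was not called. Once the trend was taken out, BMP1 was called higher and LOXL4 lower.

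Among the receptors for collagen, 7 were compared in each treated library. DDR1, a receptor tyrosine kinase for collagen, had counts of 2164 (control), 1533 (Rg3) and 2855 (TAM), and fell by 0.82 with Rg3 and rose by 0.61 with TAM. ITGB1, the integrin subunit shared by the collagen receptors and the most abundant of the list, had 5090, 9438 and 2312 counts, with a change of 0.56 with Rg3 that was within the fold limit, and fell by 0.93 with TAM (-1.004 to -0.86). Its partner ITGA2 rose by 0.80 with Rg3. ITGA10 and MRC2 fell with Rg3, at log2 fold changes of -1.34 and -0.99. In all, 2 receptors rose and 3 fell with Rg3, and 2 rose and 1 fell with TAM, with medians of 0.09 and -0.14. Once the trend was taken out, 1 rose and 1 fell with Rg3, ITGA1 and ITGA10, and 2 rose with TAM, GP6 and ITGA2. Of all genes compared, 7.18% then rose and 6.23% fell with Rg3, and 11.8% rose and 11.4% fell with TAM. ITGA1 rests on 8, 39 and 8 counts and GP6 on 3, 5 and 12 in the control, Rg3 and TAM libraries. DDR1 then stood at -0.13 with Rg3 and 0.41 with TAM, and ITGB1 at -0.50 with TAM, none of them called. With library totals 3 rose and 3 fell with Rg3, and 1 rose and 1 fell with TAM.

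The proteins that join type IV collagen in basement membranes were read from 15 genes, of which 12 were compared in each treated library. With TAM 6 fell and 1 rose, with a median log2 fold change of -0.61. LAMB1, a laminin subunit, had counts of 849 (control), 1125 (Rg3) and 244 (TAM), and fell by 1.59 with TAM (-1.80 to -1.39). NID1, which links laminin to type IV collagen, had 1733, 2706 and 528 counts and fell by 1.51 (-1.65 to -1.37). LAMA5, HSPG2 and LAMC1 fell with TAM, at log2 fold changes of -1.02, -0.97 and -0.74. LAMB3, a subunit of the laminin of hemidesmosomes, had 62, 37 and 152 counts and rose 2.83-fold. With Rg3, 6 of these genes fell and none rose, with a median of -0.97. LAMB2, the most abundant of the list per length, had 3282, 1985 and 3053 counts. It fell with Rg3 at a log2 fold change of -1.05, while LAMC3, LAMB3 and AGRN stood at -1.17, -1.07 and -1.02. None of the list was called with Rg3 once the trend was taken out. With that trend out 4 of them fell and 2 rose with TAM, where 11.4% of all genes fell and 11.8% rose. LAMB1 then stood at -1.31 and NID1 at -1.30.

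The culture was checked for other cells that make collagen. Of 10 markers of fibroblasts or stellate cells, PDGFRA and FAP had no reads in any library, THY1 had 72, 61 and 72 counts, and the sum of the list was between 6.67 and 9.24 CPM, with at most 3 markers at 10 counts or more in a library. Of 3 endothelial markers, CDH5 was at 0 in every library and the sum was between 0.174 and 0.301 CPM. The 6 epithelial markers were read in all 3 libraries and summed to 2400 CPM in the untreated cells, 1088 under Rg3 and 2825 under TAM. Of these, KRT7, KRT8, KRT18, KRT19 and CDH1 fell with Rg3. With TAM, KRT7 rose and KRT19, EPCAM and CDH1 fell, with CDH1 at 76, 39 and 5 counts in the control, Rg3 and TAM libraries. Once the trend was taken out KRT18 was no longer called with Rg3, at -0.47, and KRT7 was not called with TAM, at 0.21, nor was it with library totals, at 0.47. The part of these marker changes in the collagen results was not tested.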

How the data were processed

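RNA of PANC-1 cells was sequenced on an Ion Proton, with 1 library for control, Rg3 and TAM each, and conditions were taken from the labels. The methods name FAST-QC, TopHat and MAQ. The submitters' processing notes name GRCh38, while the counting tool, the annotation and the use of strand are not given in the sources used here. The authors deposited raw read counts per gene symbol for 51136 genes, with no normalization. There were no columns of unmapped samples.

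From these counts, log2 fold changes were computed in Python 3.11.15 after TMM scaling, whose factors in edgeR 4.0.16 under R 4.3.3 were 1.016 for control, 1.12 for Rg3 and 0.879 for TAM. A gene needed 10 counts in 1 of the libraries compared. A floor of 3 counts per library replaced lower counts in a fold, and where a library had 1 or 2 counts the ratio as read is also given. Intervals are exact (Clopper-Pearson, 95%) on the reads of a gene in 2 libraries. With 1 library per condition, limma, edgeR's quasi-likelihood test and DESeq2 could not be fitted. Alternatives were library totals, DESeq2 1.42.0 size factors, filters of 1 or 50 counts, a 2-fold limit, an assumed variation between cultures of 0.2 or 0.4, and removal of a loess trend (span 0.3) on GC content and length of the longest GENCODE 29 transcript, known for 89.7% of compared genes with Rg3 and 90.3% with TAM. The fold calls and the removal of the trend were tested on simulated data.

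The 44 chains and the other lists were chosen with earlier results of these data known. All chains are accounted for, and chains with at least 50 counts are given with their counts in each library. From each other list, genes past the fold limit with at least 50 counts were named, up to the 4 largest in each direction, with the most abundant member, in the comparisons with control. The lists were not described for TAM against Rg3. Further genes were named after their values were seen. For MIA2 the older symbol with the most reads, CTAGE5, was used. Promoter sequences are from RefSeq (GRCh38.p14) and gene positions from GENCODE 29.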

Additional observations from a re-analysis of the deposited data

How the results depend on the processing

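No paired analysis was possible because there was only 1 library for control, Rg3 and TAM each, and none could be left out. With Rg3, the 2 higher chains became 0 with a filter of 50 counts and with an assumed variation of 0.2 or 0.4. Of all genes compared, 24.7% were higher with that filter, 9.95% with a variation of 0.2 and 0.62% with 0.4. The 11 lower chains became 3 with a variation of 0.4 and 6 with the GC and length trend taken out. Of all genes compared, 0.98% and 6.23% were then lower. The median of -0.56 became -1.07 with 50 counts and 0.0085 with the trend out, where COL18A1 also stood at 0.0085. With TAM, the 5 higher chains became 2 with library totals or a variation of 0.2, and 3 with 50 counts or a 2-fold limit. Of all genes compared, 7.31%, 6.28%, 16.1% and 4.64% were then higher, in that order. A variation of 0.4 left 1 higher chain and 4 of the 12 lower ones, where 0.85% of all genes were higher and 1.83% lower. For TAM against Rg3, a variation of 0.4 left 3 higher and 3 lower, where 3.80% of all genes were higher and 8.58% lower. A filter of 50 counts left 5 lower, where 35.6% of all genes were lower, and moved the median from -0.07 to 0.43. Removal of the trend left 4 higher, where 13.6% of all genes were higher, and put COL18A1 at -0.17. Of 45 single-chain changes, 45 moved by less than their counting interval with DESeq2's size factors, 32 with library totals and 21 with the trend out, where 2 changes that had been called took the other sign. Technical and biological parts of the trend cannot be told apart with 1 library per condition. Depth left 20 chains under 10 counts in every library, which were not compared.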
